A study of Mus musculus with 6 samples.

Results

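The comparison described here set FL-Y, a mouse cell line with follicular dendritic cell (FDC) features that carries SV40 transforming genes, after activation with an antibody to the lymphotoxin beta receptor (the activated array) against the same line without it (the FL-Y array). Each condition was measured on 1 expression array, so there was no replicate, no error and no test for any difference between them. The labels give neither the dose nor the duration of the antibody, no control antibody, and not whether the line is 1 clone. The other 4 of the 6 arrays of the series were 2 of cultured FDC and 2 of bone marrow-derived dendritic cells (BMDC), both without added antibody as far as the labels say. They are used below only for context, and the labels do not say whether the 2 arrays of a cell type came from separate cultures. FDC form the stromal network of lymphoid follicles and display antigen to B cells, whereas BMDC present antigen to T cells.

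A probe set, the group of oligonucleotides that reads 1 transcript, was kept if its signal was 200 or more on at least 1 of the 2 FL-Y arrays. This left 15304 of 45101 probe sets, of which 13998 named a single gene, and 8588 of 18193 named genes. Just inside that limit lay Tarsl2 (187.8 without and 200.1 with the antibody), and just outside it Fam110a (168.4 and 199.9). Of the 8588 genes, 318 were at 200 or more only on the FL-Y array and 257 only on the activated array. Differences are activated minus FL-Y in log2(signal + 14.2), a scale on which the change of dim genes is understated, and signals are in the deposited linear units. A gene is called higher or lower here where that difference was 1 or more in size, which is a 2-fold ratio of the offset signals.

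The lymphotoxin beta receptor is a receptor of the tumour necrosis factor (TNF) family on stromal cells, and its ligands are made by lymphocytes. On engagement it draws the adaptors of the TRAF family and the cIAP ubiquitin ligases away from the kinase NIK, which then accumulates and drives processing of the Nfkb2 precursor, so that RelB-containing NF-kB dimers enter the nucleus. It also activates the canonical IkB kinase complex and RelA, and in lymphoid stroma both arms are known for chemokines, adhesion molecules and B cell survival factors that shape the follicle.

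The line had the stromal markers examined, and its FDC-like label was borne out by its markers only in part. All 7 stromal markers, among them the collagen gene Col1a1 and the vimentin gene Vim, were at 200 or more on 1 or both FL-Y arrays. On the BMDC arrays Vim, Thy1 and Pdpn were also above 200, while Pdgfra, Pdgfrb, Col1a1 and Col3a1 were not. Of 14 FDC markers, 6 reached 200 on an FL-Y array: Mfge8, Vcam1, Icam1, Prnp, Ltbr and Tnfsf13b. Icam1 did so only on the activated array (115.1 and 789). Vcam1, Prnp and Ltbr were brighter on both FL-Y arrays than on either BMDC array, Icam1 was dimmer, and Tnfsf13b overlapped them. Mfge8 was at 4687.8 without and 4303.7 with the antibody, but brighter on the BMDC arrays (27357.5 and 25081.7). The complement receptor gene Cr2 (41.9 and 21.6) and the Fc receptor genes Fcgr2b (66 and 39.5) and Fcer2a (38.4 and 14.7) stayed under 200. So did the follicular chemokine gene Cxcl13 (61.2 and 7.7). On the FDC arrays Cr2 (119.5 and 4.1), Fcgr2b (62.7 and 47.3) and Fcer2a (104.1 and 42.4) were under 200 as well. Cxcl13 was above it on 1 FDC array (585.9 and 59.8), as was Clu (221.6 and 71.2). Bst1 was far above it on both (2467.5 and 2755.7), against 64.3 and 72.7 on the FL-Y arrays. None of the 30 measured markers of leukocytes, mast cells, endothelium and epithelium reached 200. The leukocyte markers summed to 103.2 without and 131.1 with the antibody, against 73483.6 and 74613.4 on the BMDC arrays.

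Few genes differed between the FL-Y arrays: 114 of 8588 (1.33%) were higher on the activated array and 163 (1.90%) lower, in all 3.23%. A difference of 2 or more was seen for 23 genes in the higher direction and 15 in the lower. The same rule applied to arrays of 1 cell type gave 1934 of 9471 genes (20.4%) between the FDC arrays and 1293 of 9216 (14.0%) between the BMDC arrays. The SD of the differences over genes was 0.43 between the FL-Y arrays, 1.01 between the FDC arrays and 0.77 between the BMDC arrays. The FL-Y arrays thus differed from each other over fewer genes than did arrays that share a label, and how far a repeat of either FL-Y condition would scatter was not measured.

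**Figure D1:**
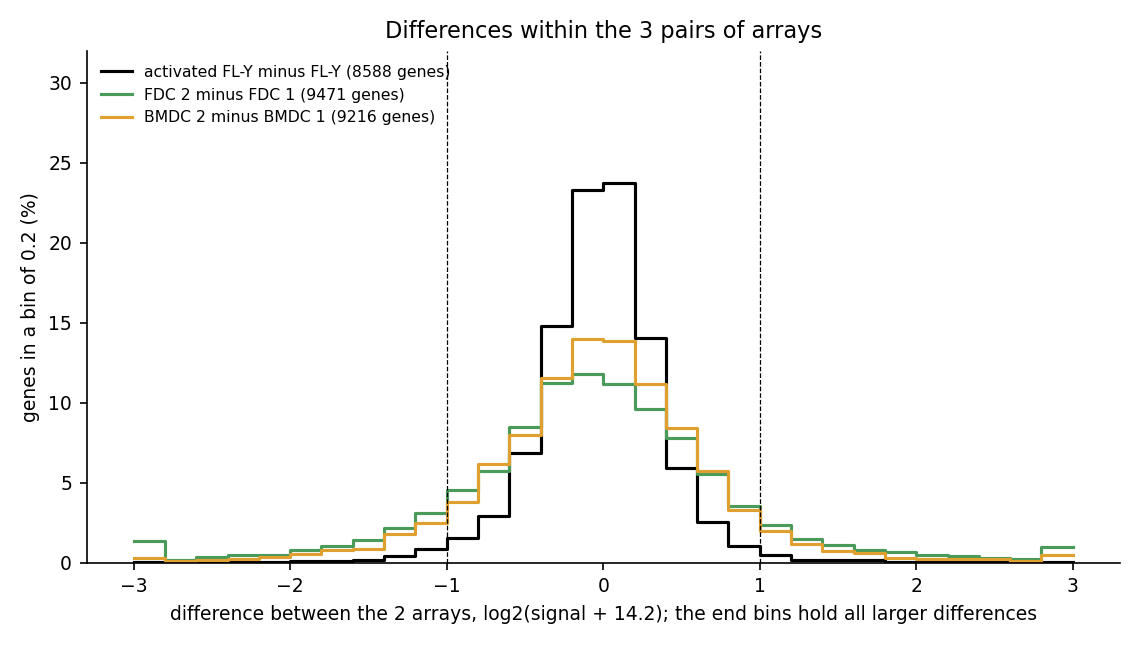
Percent of genes (vertical axis) in bins of 0.2 of the difference between the 2 arrays of a pair, in log2(signal + 14.2) (horizontal axis), for the FL-Y, FDC and BMDC pairs; the dashed lines mark a difference of 1. The FL-Y distribution is the narrowest, with an SD of 0.43 against 1.01 and 0.77.

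Part of the genes called between the FL-Y arrays also differed between the 2 FDC and between the 2 BMDC arrays. Of the 8588 genes, 8098 had a signal of 200 or more on an FDC array, and 1296 of these (16.0%) differed by 1 or more between the FDC arrays. Among the higher genes the share was 36 of 87 (41.4%), and 27 of the 36 were higher on FDC array 2. Among the lower genes it was 79 of 134 (59.0%), and 60 of the 79 were lower on FDC array 2. Between the BMDC arrays 9.92% of the genes at 200 there differed, against 16 of 71 higher genes (22.5%) and 24 of 71 lower genes (33.8%), with 10 of the 16 higher and 11 of the 24 lower on BMDC array 2. Called genes thus differed more often than others between both pairs. What set these arrays apart was not tested.

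Brightness moved with the difference. Genes with a geometric mean signal of 10000 or more (400 genes) had a median difference of -0.16, against 0.02 for the 2593 genes between 1000 and 3000. After quantile normalization of the 2 arrays the median of the 400 bright genes was 0.01. The deposited arrays share a trimmed mean of 500. Over all 45101 probe sets the median signal, far under the 200 of the signal rule, was 61.1 without and 47.9 with the antibody. Rescaling both to 1 median adds 0.35 to the differences, which moves the median over genes from -0.01 to 0.33 and makes 83.7% of the called genes higher instead of 41.2% (339 higher and 66 lower). Differences between -0.35 and 0 therefore have no settled sign. The 3' to 5' signal ratio of Actb, a mark of RNA integrity, was 1.13 without and 1.12 with the antibody, and that of Gapdh was 0.903 and 0.808.

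**Figure D2:**
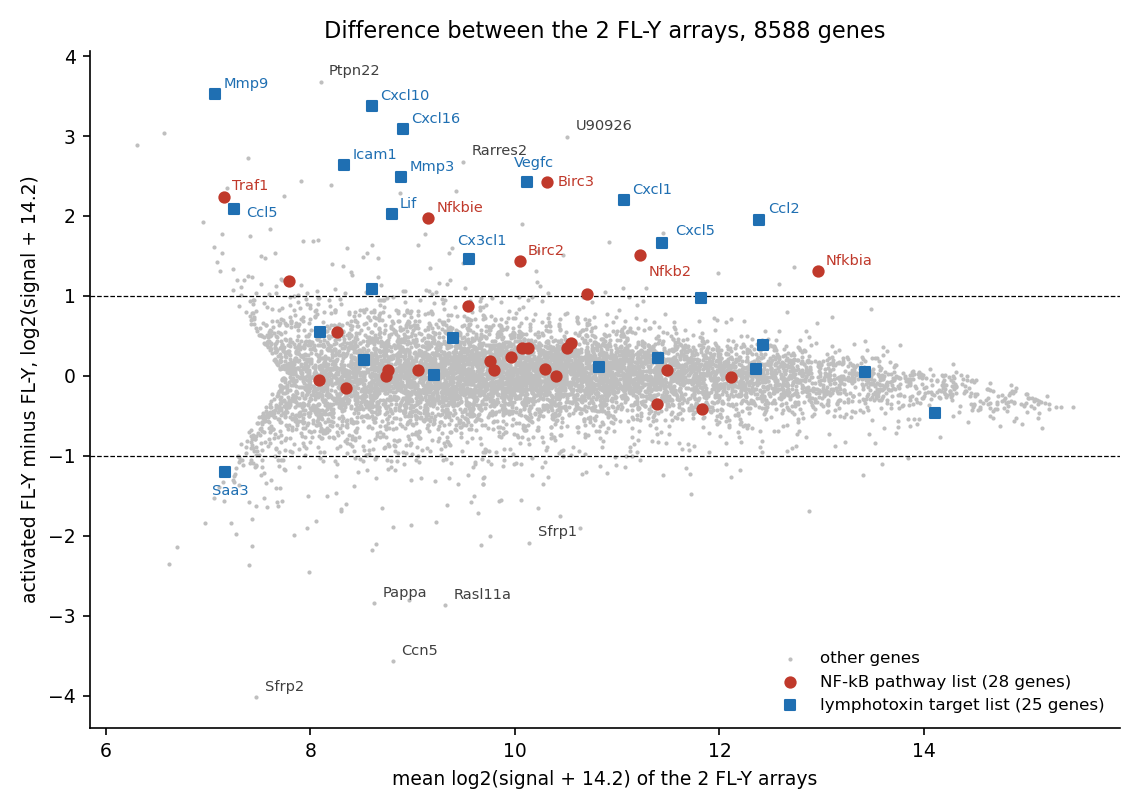
Difference between the activated and the FL-Y array (vertical axis) against the mean of both arrays (horizontal axis), both in log2(signal + 14.2), for 8588 genes; the dashed lines mark a difference of 1. The 28 genes of the NF-kB pathway list (red circles) and the 25 of the lymphotoxin target list (blue squares) lie mostly above 0, and the brightest genes at the right lie below it.

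The receptor gene itself, Ltbr, had a signal of 3016.3 without and 2363.2 with the antibody, a difference of -0.35 that rounded to 0 after rescaling to 1 median. It was expressed at 3493.2 and 1322.6 on the FDC arrays and at 1422.1 and 1108 on the BMDC arrays. Its ligand genes Lta, Ltb and Tnfsf14 were at 2, 10.3 and 3.8 on the FL-Y array and at 3.7, 8.2 and 1.5 on the activated array, and Tnf was at 34.6 and 38.2. All 4 lay far under 200 on both arrays. The TNF receptor genes Tnfrsf1a (4190.7 and 3149.9, a difference of -0.41) and Tnfrsf1b (412.4 and 411.5, a difference that rounds to 0) were measured and not called.

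The genes of the NF-kB pathway that were higher on the activated array were mostly its inhibitors, its ubiquitin ligases and the non-canonical arm. Of 42 genes in the list, 28 passed the signal rule, and 8 of these (28.6%) were higher and 0 lower, with a median difference of 0.29, against 1.33% higher, 1.90% lower and a median of -0.01 over all 8588 genes. Members could pass through the activated array alone, as 2 did. With 200 or more required on both arrays, 6 of 26 (23.1%) were higher, with a median of 0.21, against 60 of 8015 genes (0.749%). Another 10 members lay under 200 on both arrays. The list was chosen with earlier results of these data known, so these shares are a description.

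Among the adaptors and ligases, Birc3, which encodes a cIAP that holds NIK in check, was at 533.6 without and 2931.4 with the antibody (a difference of 2.43, 5.38-fold). Its relative Birc2 was at 629 and 1725.4 (1.44). Traf1, an adaptor that binds the cIAPs, was at 51.2 and 295 (2.24). On the BMDC arrays both Birc3 (4827.8 and 4482.2) and Traf1 (649.7 and 1344.5) lay above their level on the activated array. By contrast, the adaptor genes Traf2 (796 and 907.9, a difference of 0.19) and Traf5 (329 and 293.6, -0.16) were not called, and Tank, a TRAF-binding adaptor, was at 238.6 and 355.4 (0.55).

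Of the kinases, Map3k14, which encodes NIK itself, was at 132.7 without and 318.8 with the antibody (1.18). Its 2 probe sets differed by 0.51 and 1.18, and with their median it was not called (0.85). The IkB kinase genes Ikbkb (1286.3 and 1712, 0.41) and Ikbkg (408.7 and 429.2, 0.07) and the upstream kinase gene Map3k7 (936.5 and 1197.9, 0.35) were not called. The related kinase genes Tbk1 (980.5 and 1250.6, 0.35) and Ikbke (75.1 and 107, under the signal rule) were not called either. Other probe sets of Ikbkb and Ikbkg differed by up to 0.76 and 0.63, more than the second one of Map3k14. Map3k14 was thus the 1 kinase gene called, by its brighter probe set.

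Of the 4 NF-kB subunit genes with a value (Nfkb2, Relb, Rela and Rel), the pair of the non-canonical arm differed most. Nfkb2, whose product is the precursor that NIK directs to processing, was at 1403.7 without and 4025.9 with the antibody (1.51), above its signal on all 4 FDC and BMDC arrays (659.2 to 1734.6). Relb, its partner, was at 535.5 and 994.9 (0.88) and so missed the limit of 1. Rela, the main canonical subunit, was at 4433.4 and 4379.6 (-0.02), and Rel, a subunit of lymphoid cells, was at 78.3 and 95.6. Bcl3, a nuclear co-regulator of NF-kB, was at 906.4 and 1067.6 (0.23).

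Among the inhibitors, Nfkbie, which encodes IkB epsilon, was at 273.5 without and 1113.6 with the antibody (1.97), and its other probe set differed by 1.98. Nfkbia, which encodes IkB alpha, was at 5043.2 and 12567.8 (1.31), the brightest gene of the list on the activated array, with 5 probe sets between 0.78 and 1.91. Tnfaip3, which encodes a ubiquitin-editing enzyme that limits NF-kB, was at 1157.3 and 2375.7 (1.03) and at 0.99 after quantile normalization. Nfkbib (854.1 and 898.9, 0.07), Cyld (1342.2 and 1338.6) and Tnip1, whose product binds that of Tnfaip3, (1276.2 and 1631.2, 0.35) were not called. Nfkbiz differed by 0.08 at its brightest of 3 probe sets and by up to 1.09 at another.

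Of the higher genes of this list, 4 hold the kappaB consensus, the sequence NF-kB dimers bind, and the promoters of the 3 with the largest differences are shown. Each window is the 250 bases before the annotated start (RefSeq, build GRCm38.p6). They are printed on the gene's strand, and capitals mark each match on either strand. Nfkbie lies on the plus strand (chr17:45555450-45555699), with 1 match that begins 106 bases before the start. The first of 3 Nfkb2 windows, on the plus strand (chr19:46304487-46304736), has 3 matches, which begin 39, 38 and 11 bases before the start, the first of them overlapping the next on the opposite strand. Nfkbia lies on the minus strand (chr12:55492648-55492897), with 1 match that begins 29 bases before the start.
Nfkbie: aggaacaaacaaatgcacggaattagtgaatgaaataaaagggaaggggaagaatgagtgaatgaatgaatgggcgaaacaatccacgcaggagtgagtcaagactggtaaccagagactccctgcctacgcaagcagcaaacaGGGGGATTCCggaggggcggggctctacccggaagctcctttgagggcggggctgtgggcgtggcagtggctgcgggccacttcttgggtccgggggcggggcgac
Nfkb2: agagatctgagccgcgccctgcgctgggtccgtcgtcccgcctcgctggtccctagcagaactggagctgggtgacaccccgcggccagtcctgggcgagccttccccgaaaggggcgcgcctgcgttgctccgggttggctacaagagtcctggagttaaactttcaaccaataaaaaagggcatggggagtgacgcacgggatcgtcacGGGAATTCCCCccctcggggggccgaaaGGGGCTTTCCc
Nfkbia: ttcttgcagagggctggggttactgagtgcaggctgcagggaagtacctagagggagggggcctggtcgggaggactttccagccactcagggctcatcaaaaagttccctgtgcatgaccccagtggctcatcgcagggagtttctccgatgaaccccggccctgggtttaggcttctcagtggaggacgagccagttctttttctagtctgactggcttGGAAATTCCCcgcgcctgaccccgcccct

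Known targets of lymphotoxin and NF-kB in stroma were among the genes with the largest higher differences. Of 46 genes in the list, 25 passed the signal rule, and 13 of these (52.0%) were higher and 1 lower, with a median difference of 1.08, against 1.33%, 1.90% and -0.01 over all genes. Of the 25, 6 passed only through the activated array and 1 only through the FL-Y array. With 200 or more on both arrays, 7 of 18 (38.9%) were higher, with a median of 0.51, against 0.749% of all genes. The median of the 25 was 0.56 between the FDC arrays and 0.62 between the BMDC arrays. Another 17 members lay under 200 on both arrays, 3 of them higher by 1 or more and 4 lower. Of the 114 higher genes, 18.4% belonged to this or the NF-kB list, and so did 7 of the 15 largest differences and 13 of the 30 largest. Both lists were chosen with earlier results of these data known, so these shares are descriptions and not independent support.

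Of the 16 chemokine genes of the list, 9 passed the signal rule. Of these, 7 were higher and 0 lower, against 1.33% higher and 1.90% lower over all genes. Cxcl10, Cxcl16 and Ccl5 passed only through the activated array. Of the 7 under 200, 1 was higher (Cxcl11, 19.9 and 59.1) and 3 lower (Cxcl13, Ccl20 and Cxcl9, the last at 51.1 and 6). Cxcl10, a chemoattractant of activated T cells, was at 106.2 without and 1231.6 with the antibody (3.37, 10.3-fold). On the FDC arrays it was at 471.2 and 10507.3, so that the activated level lay between them. Cxcl16, a transmembrane chemokine, was at 150.1 and 1381.5 (3.09), with its other probe set at 2.94, and was brighter still on all 4 FDC and BMDC arrays (5590.6 to 8936.7). The neutrophil chemokine genes Cxcl1 (987.9 and 4580.3, 2.20) and Cxcl5 (1547.6 and 4929.2, 1.66) were both higher. For Cxcl1 the activated level lay close to that of the FDC arrays (5563.6 and 5055.8), and 3 probe sets differed by 1.96 to 2.20.

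The monocyte chemokine gene Ccl2 was at 2713 without and 10562 with the antibody (1.96), the brightest of the chemokine genes called, and at 19434 and 34408.2 on the FDC arrays. Its neighbour in function Ccl7 was at 2576.7 and 5054.9 (0.97), just under the limit. Ccl5, a chemokine of T cells and monocytes, was at 59.5 and 299.5 (2.09), and Cx3cl1, a membrane-bound chemokine, was at 439.5 and 1233.7 (1.46). The chemokine genes thus spanned differences from below 1 to above 3.

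Cxcl12, a homeostatic chemokine gene of lymphoid stroma, was not called, and Cxcl13 and Ccl20 did not pass the signal rule. Cxcl12, which retains lymphocytes and plasma cells, was the brightest gene of the list at 20766.8 without and 15065.1 with the antibody (-0.46, -0.29 after quantile normalization and -0.11 after rescaling). Cxcl13, the follicle chemokine for B cells and a known target of the non-canonical arm, was at 61.2 and 7.7, under the signal rule on both arrays. Ccl20 was at 173.3 and 74.1, also under it. Cxcl13 was at 585.9 and 59.8 on the FDC arrays.

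Of the chemokine genes with a promoter window, Cxcl10 and Cxcl1 hold kappaB matches and are shown in the same form. Cxcl10 lies on the minus strand (chr5:92348890-92349139), with 2 matches that begin 159 and 103 bases before the start. Cxcl1 lies on the plus strand (chr5:90890995-90891244), with 2 overlapping matches that begin 71 and 70 bases before the start, on opposite strands.
Cxcl10: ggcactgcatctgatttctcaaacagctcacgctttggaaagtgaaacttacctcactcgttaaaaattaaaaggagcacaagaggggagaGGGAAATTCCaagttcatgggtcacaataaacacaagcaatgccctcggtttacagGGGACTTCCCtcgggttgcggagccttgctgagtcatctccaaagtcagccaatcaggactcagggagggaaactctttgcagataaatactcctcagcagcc
Cxcl1: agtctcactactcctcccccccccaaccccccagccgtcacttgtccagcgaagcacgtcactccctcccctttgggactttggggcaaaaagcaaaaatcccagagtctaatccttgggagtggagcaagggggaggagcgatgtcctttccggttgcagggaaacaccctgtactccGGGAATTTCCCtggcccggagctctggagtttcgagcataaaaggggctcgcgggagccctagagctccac

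Of the 16 called genes of the NF-kB and lymphotoxin lists with a window, 6 held a match, Tnfaip3 (2 matches, not printed) besides the 5 shown, and 10 held none, among them Birc3, Birc2, Traf1, Map3k14, Icam1 and Vegfc. Over all genes with a window, 4.46% of 27025 held a kappaB match in those 250 bases on either strand, and 5.26% of the 7067 genes that passed the signal rule did. Among the higher genes it was 11 of 89 (12.4%) and among the lower genes 2 of 115 (1.74%). Those 16 genes (37.5%) are part of the 89 and hold 6 of the 11 matches, so the shares of the 16 and the 89 are not separate. The AP-1 motif TGANTCA, chosen after the differences were known, was in 4.87% of the genes that passed, in 20 of the 89 higher genes (22.5%), in 8 of the 115 lower genes (6.96%) and in 7 of the 16 (43.8%). Of the 89 higher genes, 5 held both motifs. The interferon motif GAAANNGAA, also searched on both strands, was in 6.96% of the genes that passed, 11.2% of the higher genes, 11.3% of the lower genes and 18.8% of the 16. The E-box motif CANNTG, searched as a control, was in 59.0% of the genes that passed, 69.7% of the higher genes, 65.2% of the lower genes and 75.0% of the 16. All 4 motifs were thus in a larger share of the higher genes than of the genes that passed. Higher genes had 1.37 windows each and passing genes 1.28, so a few more bases were searched for them. Mmp9, Cxcl16, Ccl5, Ccl2 and Cxcl5 were not matched to a window.

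Adhesion molecules showed a split between a dim and a bright gene. Icam1, a ligand of leukocyte integrins, was at 115.1 without and 789 with the antibody (2.64, 6.21-fold), and at 1832.4 and 2360 on the FDC arrays. Vcam1, another integrin ligand of FDC, was already at 4815.9 and read 6294.6 on the activated array (0.39), although its 3 probe sets reached 1.11. Madcam1, an addressin of mucosal and FDC networks, was at 71.2 and 35.5, under the signal rule.

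Of the cytokines, Tnfsf13b, which encodes the B cell survival factor BAFF, was at 253.3 without and 551.8 with the antibody (1.08, and 0.996 with an offset at the 40th percentile). It was at 4004.1 and 1265.1 on the FDC arrays. Lif, a cytokine of the same receptor family as Il6, was at 205.9 and 880.6 (2.02), and Il6 itself at 212.6 and 316.6 (0.54). The macrophage growth factor gene Csf1 was at 10821.5 and 11143.2 (0.04). Csf2, another colony-stimulating factor, was at 13.2 and 167.8, and Il7, a lymphocyte survival factor, at 58.8 and 113.5, both under the signal rule. Lif was therefore the cytokine gene of the list with the largest difference among those that passed.

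The proteases of the list and 1 of its vessel growth factors were higher too. Mmp9, a gelatinase, was at 25.3 without and 440.5 with the antibody (3.52, 11.5-fold), with its other probe set at 15.4 and 541.3 (4.23). Mmp3, stromelysin, was at 185.1 and 1105.9 (2.49), still under its level on the FDC arrays (10689.3 and 8578.4). Vegfc, the lymphatic vessel growth factor, was at 464.7 and 2559 (2.43), close to the FDC arrays (2231.8 and 2256.4), and its 3 probe sets differed by 2.05 to 2.55. Vegfa, the blood vessel growth factor, was at 1736.5 and 1869.6 (0.11). The 1 lower gene of the list was Saa3, an acute-phase protein gene, at 203.2 and 80.2 (-1.20, and -0.90 after rescaling).

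The survival and enzyme genes of the list were close together on both arrays. Bcl2l1, an apoptosis inhibitor, was at 577.8 and 580.6 (0.01). Sod2, a mitochondrial superoxide dismutase, was at 5076.7 and 5377.1 (0.08). Ptgs2, the inducible cyclooxygenase, was at 2478.2 and 2898.8 (0.22), and Tnfrsf11b, which encodes osteoprotegerin, at 330.7 and 381.1 (0.20). Cflar, a caspase regulator, was at 556.7 and 778.7 (0.47), while its 4 probe sets ranged from -1.52 to 0.52 and so disagreed in sign.

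**Figure D3:**
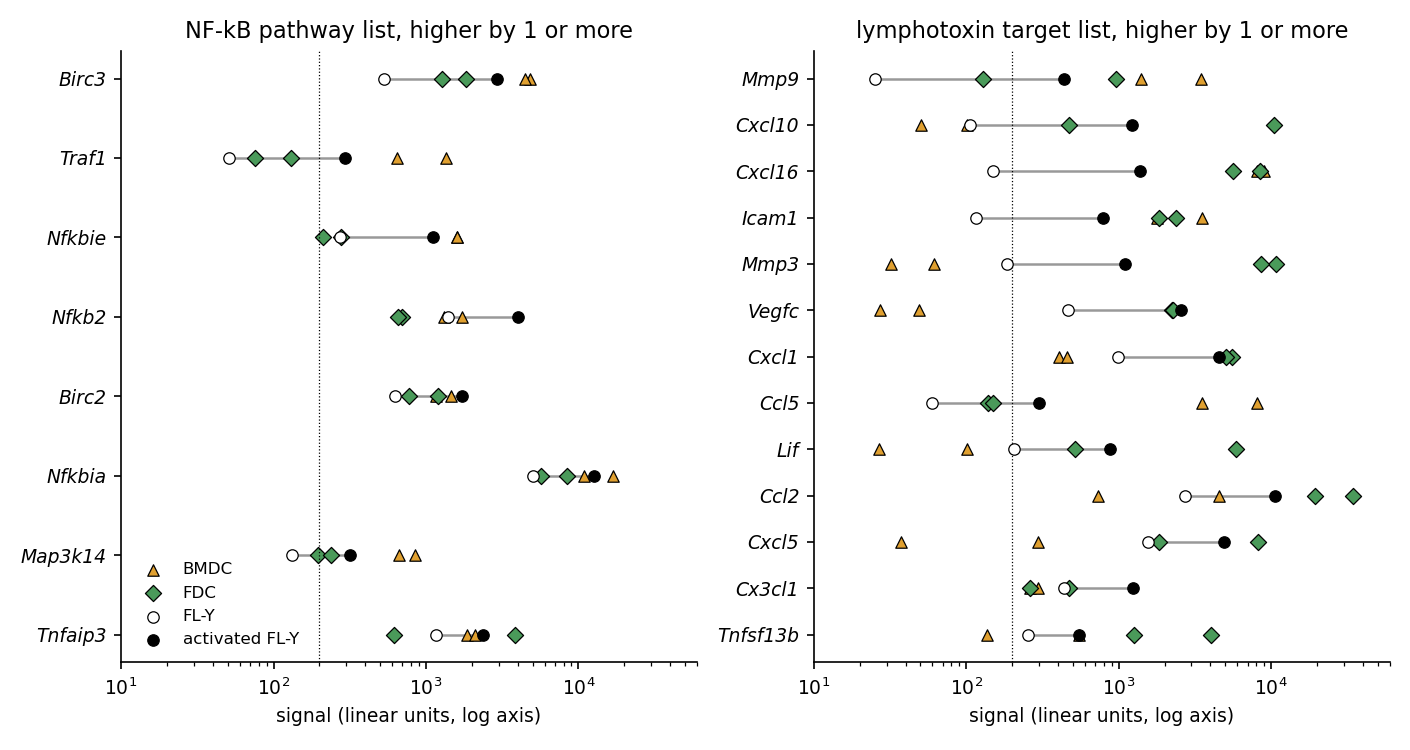
Signal on each of the 6 arrays (horizontal log axis, linear signal units) for the 8 NF-kB pathway genes and the 13 lymphotoxin target genes with a difference of 1 or more; each symbol is 1 array, a grey line joins the FL-Y arrays and the dotted line marks 200. Nfkb2, Birc2, Vegfc and Cx3cl1 were brighter on the activated array than on the other 5 arrays, while Cxcl16 and Icam1 stayed below all 4 FDC and BMDC arrays.

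Outside these lists, Ptpn22 had the largest higher difference of all genes that passed. This phosphatase of lymphocyte signalling was at 62.3 without and 968 with the antibody (3.68, 12.8-fold), against 107.7 and 587.4 on the FDC arrays. U90926, a transcript for which no role is given here, was at 502.7 and 4103.2 (2.99), and at 132 or less on the FDC and BMDC arrays. Rarres2, which encodes the chemoattractant chemerin, was at 270.6 and 1809.4 (2.68), with its other probe set at 2.22, and far brighter on the FDC arrays (65962.7 and 49882.1). Fas, the death receptor, was at 114.1 and 660 (2.39).

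The remaining higher genes among the 15 largest were dim on the FL-Y array. The transcription factor gene Hand2 was at 18.8 and 257.4 (3.04), and Il18rap, the accessory chain of the Il18 receptor, was at 14.9 and 200.7 (2.88), just above the signal limit. Flrt3, a membrane protein of cell adhesion, was at 51.3 and 417.5 (2.72), and at 4.20 by its other probe set. Fabp7, a fatty acid binding protein, was at 88.7 and 542.4 (2.44). All 4 were under 200 on the FL-Y array.

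With 200 or more on both arrays, the 10 largest higher differences added Gpc1, a heparan sulfate proteoglycan of the cell surface (293.9 and 1517.8, 2.31), and Ccbe1, a secreted protein of lymphatic vessel growth that acts with Vegfc (542.2 and 2067.6, 1.90). Vegfc and Ccbe1 were thus both higher on the activated array, and both were bright on the FDC arrays, where Ccbe1 read 6234.2 and 11575.1. Genes read by several probe sets added the transporter gene Slco4a1 (198 and 1019.4, 2.28, and 3.48 by its other probe set). They also added the glutamate receptor gene Grin3a (49.4 and 226.3, 1.92) and the potassium channel gene Kcnq5 (173.5 and 555.6, 1.60).

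The largest lower difference was that of Sfrp2, a secreted inhibitor of Wnt signalling, at 699.1 without and 29.8 with the antibody (-4.02, 16.2-fold). It was at 76.9 and 33.3 on the FDC arrays. Sfrp1, another inhibitor of the same family, was at 2312.9 and 534 (-2.09), and its 5 probe sets agreed between -2.09 and -1.82. Ccn5, a matricellular protein gene, was at 1524.2 and 115.4 (-3.57). Pappa, a protease of insulin-like growth factor binding proteins, was at 1041.9 and 132.9 (-2.84), and -3.37 by its other probe set.

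Also among the 15 largest were Rasl11a, a small GTPase gene (1710.7 and 221.5, -2.87), Cdsn, a gene of epidermal cell junctions (1305.9 and 174.9, -2.80), and Inhbb, the beta B chain of inhibin and activin (578.1 and 94.3, -2.45). Masp1, a serine protease of the lectin pathway of complement, was at 1686.5 and 377.1 (-2.12). Aoc3, an amine oxidase of vessel walls and fat, was at 346.6 and 68.4 (-2.13). Crabp2, a retinoic acid binding protein, was at 817.3 and 178.4 (-2.11), and Gjb2, a gap junction protein, at 1719.1 and 417.4 (-2.01). Cdsn was at 53.7 or less and Gjb2 at 54.9 or less on the FDC and BMDC arrays.

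The rest of the 15 largest lower genes follow. Uroc1, an enzyme of histidine breakdown, was at 369.8 and 60.2 (-2.37), Lmcd1, a LIM protein gene, at 814.3 and 168 (-2.18), and Rtl3 at 207.6 and 29.1 (-2.36). Klf15, a transcription factor of fat and muscle, was at 204.4 and 35.2 (-2.15), just above the signal limit. Requiring 200 on both arrays added Timp3, a metalloproteinase inhibitor (3060.5 and 806.2, -1.91), Lims2, an adaptor of integrin adhesions (848.5 and 217.8, -1.89), and Kif26b, a kinesin (953.4 and 251.2, -1.87). It also added Car6, a carbonic anhydrase (1115.7 and 303.7, -1.83), Krt19, a keratin (2537.6 and 741.7, -1.76), and Fmod, a collagen-binding proteoglycan (1428.8 and 424.7, -1.72). Timp3 was the brightest of these, and its 4 probe sets ranged from -1.91 to -0.52.

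Probe sets of the same gene mostly agreed for the called genes. Of the 3517 genes with 2 or more passing probe sets, 61.5% had all of them on the same side of 0. Of the 34 higher genes with 2 or more, all 34 did, and in 26 every probe set differed by 1 or more. Of the 37 lower genes, 35 did, and in 20 every probe set was past the limit. Choosing genes by a large difference favours such agreement, so these shares are a description. Lower genes with several agreeing probe sets also included Crispld2 (348.8 and 108.2, -1.57), a secreted protein gene, the stress pseudokinase gene Trib3 (1580.8 and 530.3, -1.55) and the proteoglycan gene Prelp (2104.1 and 659, -1.65). Csgalnact1, an enzyme of chondroitin sulfate synthesis (1966.1 and 761.4, -1.35), the mitochondrial gene Chchd10 (1292.9 and 447.7, -1.50) and Adamts5, an aggrecan-cleaving protease (1759.9 and 734.5, -1.24), were of the same kind.

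**Figure D4:**
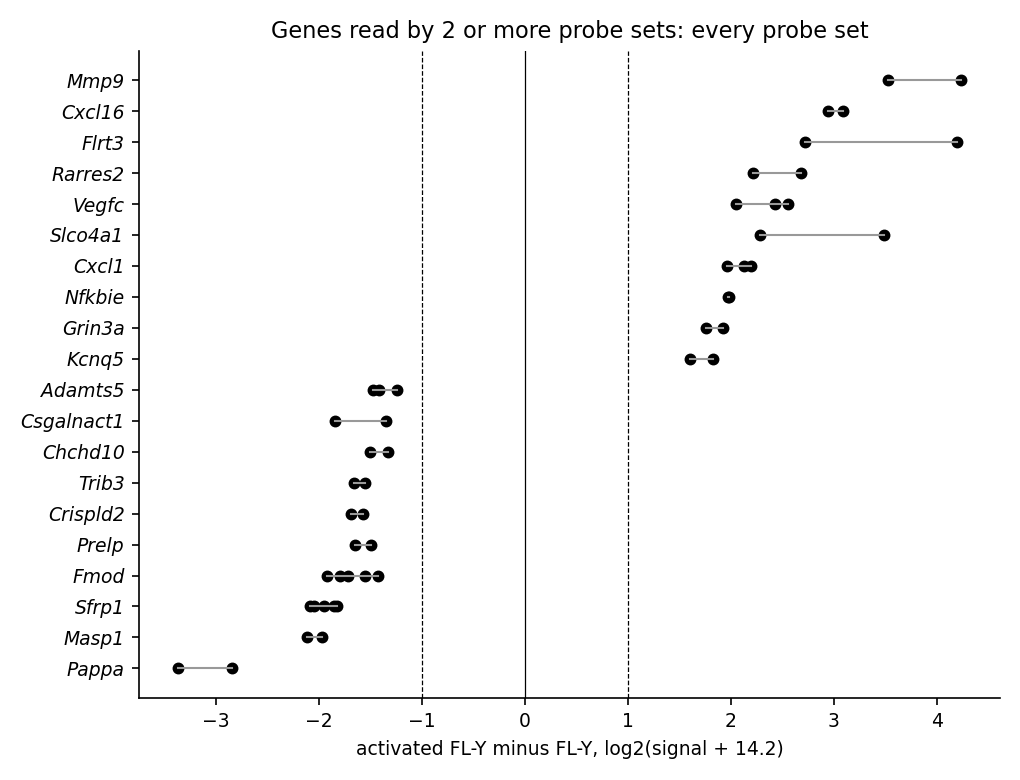
Difference between the activated and the FL-Y array in log2(signal + 14.2) (horizontal axis) for every passing probe set (points) of the 20 genes whose probe sets agreed on the largest differences, 10 in each direction; grey lines join the probe sets of a gene and dashed lines mark 1 and -1. Sfrp1 has 5 probe sets between -2.09 and -1.82, and the 2 of Flrt3 lie at 2.72 and 4.20.

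Most matrix and contractile genes lay below 0, few of them by as much as 1. Over all genes, 51.3% lay below 0, and 1.33% were called higher and 1.90% lower, which are the shares to set beside the counts of the groups from here on. Of the 41 collagen and matrix glycoprotein genes that passed, 35 (85.4%) lay below 0 and 1 (2.44%) was called lower, near the share of all genes, with a median of -0.52 (-0.37 after quantile normalization and -0.17 after rescaling, when the median of all genes was 0.33). Col6a2 was at 5276.2 without and 2725.8 with the antibody (-0.95), Col12a1 at 1237.3 and 633.1 (-0.95), and Fmod was the 1 gene called lower. Dcn, which encodes the small proteoglycan decorin, went the other way at 4233.2 and 10876.9 (1.36), and at 52260.1 and 47482.1 on the FDC arrays. Many of these genes are bright, and bright genes were lower in general. The part of brightness in the group's shift was not tested.

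Of the 27 contractile genes that passed, 25 (92.6%) lay below 0 and 4 (14.8%) were called lower, with a median of -0.44 that was -0.22 after quantile normalization and -0.09 after rescaling. Their median signal was 11622.5, the range in which genes as a whole were lower. Cnn1, a calponin of smooth muscle, was at 16707.6 and 7035 (-1.25), Mylk, the myosin light chain kinase, at 6283.8 and 2918.9 (-1.10), and Myh11, smooth muscle myosin, at 209.8 and 75 (-1.33). The fourth was Myl6, a myosin light chain, at 1261 and 580.7 (-1.10). After rescaling, 1 of the 4 stayed past the limit. This was Myh11, which passed the signal rule only through the FL-Y array.

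Of 38 genes of the TGF-beta and BMP pathway 30 passed, of which 20 (66.7%) lay below 0 and 3 were called lower, with a median of -0.19 that became 0.15 after rescaling, against 0.33 for all genes. Besides Inhbb these were Inhba, the activin A chain (6872.1 and 2848.4, -1.27), and Id4, a target of BMP signalling (1300.7 and 426.9, -1.58). Inhbb passed the signal rule only through the FL-Y array. Of the 30 other matrix proteases and inhibitors, 1 was higher and 3 lower. Mmp10, a stromelysin, was at 62 and 217.8 (1.61), and Lox, which cross-links collagen, at 20996.4 and 10262.2 (-1.03 and -0.92 after quantile normalization). Mmp10 passed the signal rule only through the activated array. In this list Mmp10 thus went with Mmp3 and Mmp9 of the target list, and Timp3, Adamts5 and Lox went against them. The median of -0.22 became 0.13 after rescaling.

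Of 16 adipocyte and lipid genes that passed, 1 (6.25%) was higher and 3 (18.8%) lower, against 1.33% and 1.90% of all genes, with a median of -0.37, which was -0.02 after rescaling, when 1 of the 3 stayed lower. Pparg, the master regulator of fat cells, was at 523.8 and 218.8 (-1.21), and Fabp4, its target, at 1977.7 and 814.7 (-1.26). Klf15 was the third and the 1 that stayed lower after rescaling, and it passed the signal rule only through the FL-Y array (204.4 and 35.2). Angptl4, a lipase inhibitor and also a PPAR target, was at 778 and 1768.8 (1.17). Among 13 growth factor genes, Igf1 was lower (1566.5 and 519.8, -1.57) and Kitl, the ligand of Kit, was at 373.8 and 731.9 (0.94). The members of these lists that were called therefore lay on both sides.

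Most genes of cell division and ribosome assembly lay above 0, by less than the call. Above 0 lay 48.6% of all genes. Of 46 DNA replication genes, 40 lay above 0 and 0 were called, with a median of 0.25. Of 44 mitosis genes, 39 lay above 0 and 0 were called, with a median of 0.25 as well. Of 42 ribosome biogenesis genes, 36 lay above 0 and 0 were called, also with a median of 0.25. The largest were Cdc6, a replication licensing factor (430.1 and 751.2, 0.78), Ect2, a cytokinesis factor (264.7 and 472.7, 0.80), and Rrs1, a ribosome assembly factor (2149.8 and 3675.3, 0.77). After quantile normalization the 3 medians were 0.22, 0.25 and 0.23, and over all genes the median was -0.02. Between the FDC arrays the 3 medians were 0.77, 1.48 and 0.60, and between the BMDC arrays 0.09, 0.32 and 0.51, so that each FL-Y median was smaller than the one between the FDC arrays. The proteins of the ribosome themselves, with a median signal of 29792.3, had a median of -0.30 that turned to 0.04 after quantile normalization.

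The interferon response genes called lay on both sides, and most MHC class I genes lay above 0, by less than the call. Of 16 type I interferon response genes that passed, Ddx58, an RNA sensor, was higher (249.8 and 609.8, 1.24) and Herc6, an interferon-induced ligase, lower (291.4 and 126.2, -1.12), with a median of 0.15. Irf1, a transcription factor and NF-kB target, was at 1198.5 and 1991.9 (0.73). Of 13 MHC class I genes, 9 (69.2%, against 48.6% of all genes) lay above 0 and 0 were called, with a median of 0.18. Tapbp, the peptide-loading chaperone (1562.6 and 3117.4, 0.99), and Psmb8, an immunoproteasome subunit (566.1 and 1126.2, 0.97), came closest to the limit, while H2-K1 was at 6346.6 and 8874.8 (0.48).

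Of 22 cytokine receptor genes and further cytokines that passed, 3 (13.6%, against 1.33% of all genes) were higher and 0 lower, with a median of 0.15. Besides Il18rap these were Il15ra, which presents the cytokine Il15 to neighbouring cells (78.7 and 297.6, 1.75), and Ccl9, a chemokine (2575.1 and 6305.2, 1.29). Il13ra1, a receptor chain for the cytokine Il13, was at 586.4 and 930 (0.65). Of the 6 FDC markers named at the outset that passed, 2 were higher, Icam1 and Tnfsf13b, which the target list also holds, and 0 lower. A separate FDC list, without the genes of the target list, had 9 genes that passed and 0 that were called, with a median of -0.12, or 0.23 after rescaling against 0.33 for all genes. Pdpn, podoplanin of lymphoid stroma, was at 2948.3 and 3620.6 (0.30), and Pdgfra and Pdgfrb, receptors of stromal growth factors, went apart (1708.4 and 3166.6, 0.88, against 1622.1 and 791.3, -1.02).

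**Figure D5:**
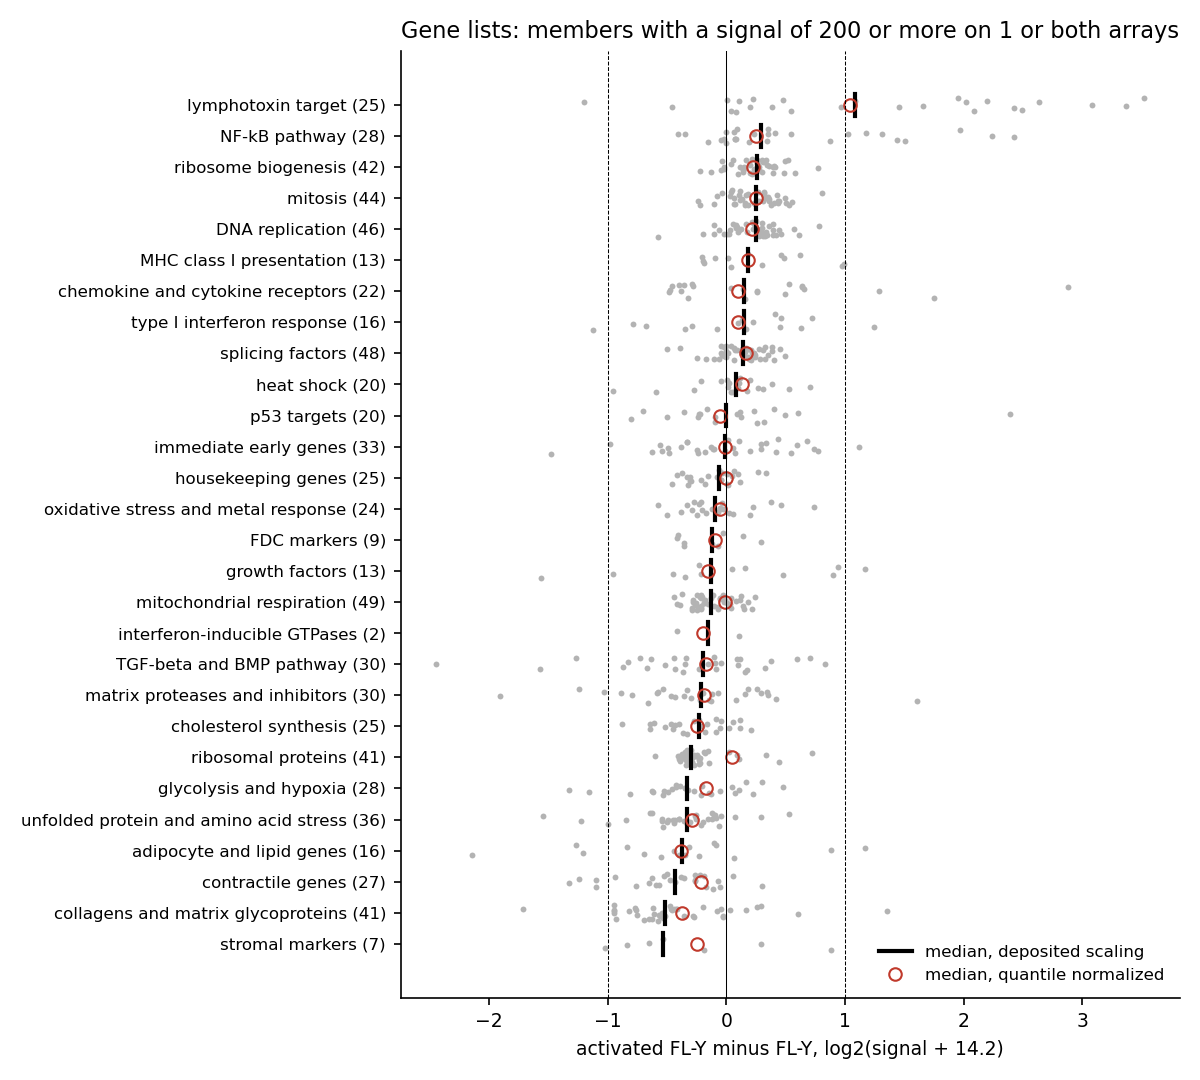
Difference between the activated and the FL-Y array in log2(signal + 14.2) (horizontal axis) for the genes of each list that passed the signal rule (grey points, number in brackets), with the list's median at the deposited scaling (black bar) and after quantile normalization (red circle). The lymphotoxin target list has the highest median, 1.08, and the bars of the ribosomal and contractile lists lie left of their circles.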

How the data were processed

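Biotin-labelled total RNA from 6 mouse samples was measured on 1 oligonucleotide array each, per the labels. The deposited table holds a linear intensity for every probe set on each array. Its mean after trimming 2% at each end was 500 on every array, so the authors had scaled the arrays. Which program computed the intensities, and how it handled background, is not given in the sources used here. Arrays have no read depth, and their number (1 a side) limits the precision.

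Values were analysed as log2(intensity + 14.2), where 14.2 is the middle of the 6 arrays' 20th percentiles. A gene was represented by whichever passing probe set was brightest on average over the 2 FL-Y arrays. In the platform annotation 34945 probe sets named 1 gene, 932 several and 9160 none, and 64 were controls. A reference gene table (assembly GRCm38.p6) held the gene identifier for 34741 of the probe sets that named 1 gene, and 0 symbols were updated. No test was possible with 1 array a side, so differences and list medians are descriptions.

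The genes named were the 15 largest differences in each direction, the 10 largest with 200 on both arrays, the 10 in each direction on which several probe sets agreed best, the passing genes of the NF-kB and lymphotoxin lists, and up to 4 of each other list. Members and the 29 gene lists were chosen with earlier results of these data known. Promoter windows came from RefSeq. Python 3.11.15, numpy 2.4.6 and pandas 2.3.3 were used, and the calculation was tested on simulated data.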

Additional observations from a re-analysis of the deposited data

How the results depend on the processing

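The counts of called genes moved most with the scaling and the signal rule. With both FL-Y arrays rescaled to 1 median, 339 genes were higher and 66 lower, in place of 114 and 163. With the signal rule at 200 on both arrays, 60 were higher and 87 lower, and with a rule of 100 on 1 array 308 were lower. The other settings (a floor at the 5th percentile in place of the offset, an offset at the 40th, quantile normalization, centring on the median difference, the median over a gene's probe sets, and a rule of 400) kept both counts within 1.5 times. Quantile normalization shared 107 of the 114 higher and 159 of the 163 lower genes. The median of the lymphotoxin target list moved beyond the spread between arrays of 1 cell type only at 200 on both arrays (0.51, against 1.08). That of the NF-kB pathway list, 0.29, was 0.64 after rescaling, 0.25 after quantile normalization, 0.35 with the median over probe sets, 0.23 with rules of 100 and of 400, and 0.21 at 200 on both arrays. No sign of either median changed. The cause of these shifts was not tested. Of 85 named genes with a difference of 1 or more, 16 fell under 1 in some setting, most of them lower genes after rescaling. The changed signal rules were left out of this tally. In it 0 reversed, which was nearly fixed in advance, as rescaling shifts a difference by only 0.35. No paired analysis was possible because each FL-Y condition has 1 array, and for the same reason no array could be left out. With 1 array a side, neither culture-to-culture nor array-to-array variation of FL-Y can be given.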

Other observations

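Stress and metabolic genes outside the report's groups were described by the same rule. Of 36 genes of the unfolded protein and amino acid stress responses that passed, 33 (91.7%, against 51.3% of all genes) lay below 0 and 2 (5.56%, against 1.90%) were called lower, with a median of -0.33 (-0.29 after quantile normalization and 0.01 after rescaling to 1 median, when the median of all genes was 0.33). Besides Trib3, the glutathione-degrading enzyme gene Chac1 was at 2456.6 without and 1042.2 with the antibody (-1.23, and -0.88 after rescaling), and the transcription factor gene Ddit3 at 3194.6 and 1592.1 (-0.998). Of 28 glycolysis and hypoxia genes, 21 (75.0%) lay below 0 and 2 (7.14%) were called lower, with a median of -0.33 (-0.17 after quantile normalization, 0.02 after rescaling). Aldoc, an aldolase, was at 227.4 and 81.8 (-1.33), and Adm, the vasodilator adrenomedullin, at 4873.9 and 2178.1 (-1.16, and -0.81 after rescaling). Aldoc passed the signal rule only through the FL-Y array. Of 25 cholesterol synthesis genes, 20 (80.0%) lay below 0 and 0 were called, with a median of -0.23 that was 0.12 after rescaling.

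Immediate early genes and p53 targets had medians of -0.01 each. Gadd45g, a growth arrest gene, was at 5647.3 and 2012 (-1.48), while Zfp36l1, an mRNA decay factor, was at 809.1 and 1777.2 (1.12) and Jun, an AP-1 subunit, at 969.8 and 1671.2 (0.78). Cdkn1a, a cell cycle inhibitor and p53 target, was at 581.2 and 325.8 (-0.81, and -1.37 by its other probe set). The 1 p53 target of 20 that was called was Fas, which was higher (114.1 and 660, 2.39) and passed only through the activated array. Heat shock genes lay above 0 in 15 of 20 (75%, against 48.6% of all genes) and 0 were called, with a median of 0.08. Hspb1, a small heat shock protein, went against them at 7576.9 and 3907.7 (-0.95). Oxidative stress and metal response genes lay below 0 in 17 of 24 (70.8%, against 51.3%) and 0 were called. Their median was -0.09, or 0.26 after rescaling against 0.33 for all genes. Nfe2l2, the regulator of the oxidative stress response, went the other way at 1339.3 and 2239.1 (0.74).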
